A study of Homo sapiens and Mus musculus with 8 samples.

Results

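The 9 genes described here encode the ligands (Tgfb1, Tgfb2, Tgfb3), the receptors (Tgfbr1, Tgfbr2, Tgfbr3) and 3 well-known targets (Smad7, Id1, Id3) of TGF-beta signalling, and were chosen by gene symbol from the authors' 5 deposited tables of comparisons. All 9 had a row in each of the 3 mouse tables, which together hold 15966 symbols, and 0 had a row in either human table. The log2 changes of these same tables were known when the genes were selected, and no threshold on a value was used. Their values are therefore a description of these samples, and the adjusted p-values beside them are no independent test. Tgfbr3 and Id3 carried the exact values of another symbol, so the counts below are over the 7 genes with values of their own.

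The study profiled melanoma cell lines by RNA-seq, with 1 sample per condition. The mouse samples were B16N cells, a mouse melanoma line labelled wild type, UV-exposed and collected at week 2 or week 5, a B16N clone overexpressing Orai1, and untreated B16N cells as the control of all 3. Orai1 forms the pore through which Ca2+ enters cells once internal stores are empty. It was introduced as a wild-type CFP fusion, followed by G418 selection, sorting and growth from individual clones, so this group is 1 clone. The control and the clone were labelled day 0, so UV and time in culture cannot be told apart, and neither can Orai1 and the steps of selection and cloning. The human samples were WM983 and UACC257 melanoma cells, labelled wild type, after 2 weeks of UV or untreated.

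TGF-beta ligands are secreted in a latent form, and once released they bring the type II receptor (Tgfbr2) together with the type I receptor (Tgfbr1). The type I receptor phosphorylates SMAD transcription factors, which enter the nucleus with Smad4 and switch target genes on or off. In normal melanocytes TGF-beta restrains growth and pigment production, while melanoma cells often secrete the ligands and escape the growth arrest.

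The tables give a log2 fold change, a test statistic and a p-value per gene, and no counts or levels. Levels in single samples and the sequencing depth are therefore unknown, and genes cannot be ranked by expression. Changes are given on the log2 scale with the treated sample over untreated B16N, and the standard error (SE) follows from the deposited statistic. A change passed when its deposited p, adjusted by Benjamini-Hochberg over the whole table, was under 0.05. With 1 library per condition no change has a replicate check, and such a test compares those libraries and not the conditions. All 8 melanoma cell markers had a row in each mouse table, and of the 7 with values of their own 5 were higher at 2 weeks, 6 at 5 weeks and 3 in the clone, where 1 was lower. Over all genes 3.13%, 3.07% and 10.3% were higher in the same order, and 11.6% were lower in the clone. Of all genes with values of their own 8.99%, 5.51% and 25.9% passed in either direction. Of 6 fibroblast, 7 macrophage, 5 endothelial and 5 keratinocyte markers, 1, 3, 1 and 2 had a row in the table of 2 weeks of UV, 1, 3, 2 and 1 in that of 5 weeks and 1, 3, 1 and 1 in that of the clone, and Csf1r, Adgre1 and Itgam had none. Among those with values of their own only the macrophage marker Lyz2 passed. It stood at 0.38 (SE 0.94) at 2 weeks and was higher at 5 weeks (3.47, SE 0.70) and in the clone (2.78, SE 0.64) in the authors' deposited tables, and its part in the values below was not tested.

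In the Orai1 clone the ligand genes Tgfb1 and Tgfb2 were lower than in untreated B16N, by 21.8-fold and 3.78-fold in the authors' deposited table, and the receptor gene Tgfbr2 was higher by 1.54-fold. After 2 weeks of UV only Tgfb2 passed, and it was lower, while after 5 weeks none of the 7 passed. The plot of the 9 genes by comparison shows these changes with their intervals.

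**Figure D1:**
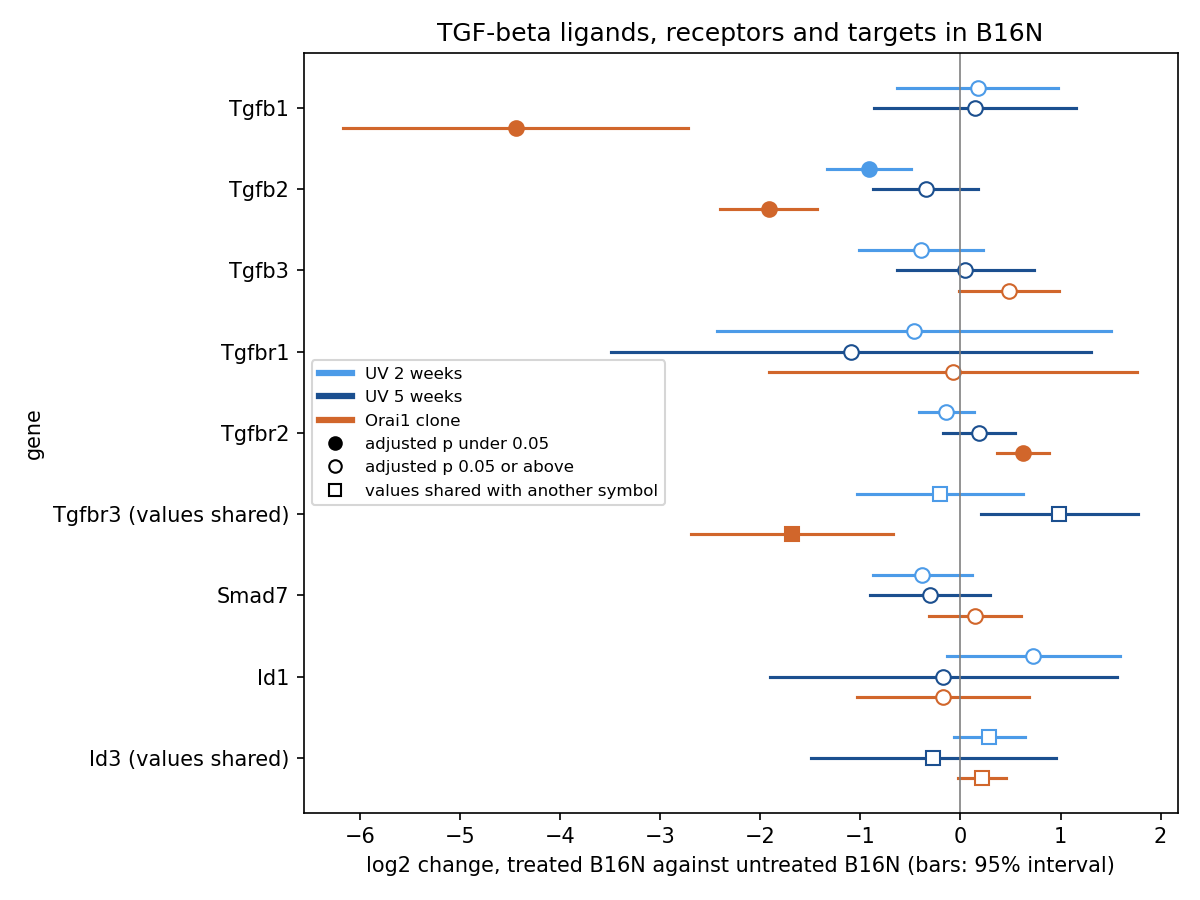
Log2 change of the 9 genes (rows) in treated B16N against untreated B16N, from the authors' deposited tables. Points are the changes, bars the 95% intervals implied by the SE, filled points pass an adjusted p of 0.05, and squares mark values shared with another symbol. Tgfb1 in the clone lies farthest from 0 at -4.44.

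Tgfb1 encodes the ligand found in most tissues. Its change was 0.17 (SE 0.41) after 2 weeks of UV, 0.15 (SE 0.52) after 5 weeks and -4.44 (SE 0.88) in the clone in the authors' deposited tables. The clone was far below both UV samples, whose changes lay close to 0. In bulk RNA, fewer cells with a transcript and less of it per cell cannot be told apart. In the clone the fall was 21.8-fold, with a 95% interval from 6.59-fold to 71.9-fold (adjusted p = 6.96e-06 in the authors' deposited table). The SE of Tgfb1 in the clone was larger than that of 70.5% of rows, so the size of this fall is known only roughly.

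Tgfb2 encodes a ligand that depends on the co-receptor betaglycan for strong binding. Its change was below 0 in each of the 3 comparisons in the authors' deposited tables, at -0.92 (SE 0.22) after 2 weeks of UV, -0.35 (SE 0.27) after 5 weeks and -1.92 (SE 0.25) in the clone. The change passed at 2 weeks (adjusted p = 7.76e-04) and in the clone (adjusted p = 3.12e-13), and did not at 5 weeks (adjusted p = 0.725), in the authors' deposited tables. The fall was 1.89-fold at 2 weeks (95% interval 1.41 to 2.53), under a 2-fold minimum, and 3.78-fold in the clone (2.71 to 5.28) in the authors' deposited tables. Ordered from the most negative test statistic, Tgfb2 stood at place 224 of 14648 genes at 2 weeks and at place 173 of 15041 in the clone.

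Tgfb3 encodes the third ligand, known for its role in palate closure. Its change was -0.39 (SE 0.32) after 2 weeks of UV, 0.05 (SE 0.35) after 5 weeks and 0.48 (SE 0.26) in the clone in the authors' deposited tables, and none passed. Within the clone, the change of Tgfb3 exceeded that of Tgfb2 by 2.40 (95% interval 1.71 to 3.10) in the authors' deposited table. Tgfb1 lay below Tgfb2 by a difference of -2.53 (95% interval -4.32 to -0.73) in the authors' deposited table. The 3 ligand genes thus stood apart from one another in the clone, in the order Tgfb1, Tgfb2, Tgfb3 from the lowest. At 2 weeks Tgfb1 lay above Tgfb2 by 1.09 (95% interval 0.18 to 2.00) in the authors' deposited table, the reverse of the order of this pair in the clone. The intervals with Tgfb3 held 0 at 2 weeks, at -0.45 to 1.58 for Tgfb1 minus Tgfb3 and -0.22 to 1.28 for Tgfb3 minus Tgfb2. At 5 weeks each interval between ligands held 0, for example 0.49 (-0.65 to 1.64) for Tgfb1 against Tgfb2 in the authors' deposited table.

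Tgfbr2 encodes the type II receptor, which binds the ligand first. It stood at -0.14 (SE 0.14) after 2 weeks of UV, 0.19 (SE 0.19) after 5 weeks and 0.63 (SE 0.13) in the clone in the authors' deposited tables. The rise in the clone was 1.54-fold (95% interval 1.29 to 1.84, adjusted p = 2.54e-05 in the authors' deposited table), opposite in direction to the falls of Tgfb1 and Tgfb2. Of the 7 genes it had the smallest SE in every comparison, so changes of at least 1.32-fold at 2 weeks and 1.48-fold at 5 weeks would have passed at its SE.

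Tgfbr1 encodes the type I receptor, the kinase that acts on SMADs. Its change was -0.46 (SE 1.0) after 2 weeks of UV, -1.10 (SE 1.22) after 5 weeks and -0.07 (SE 0.94) in the clone in the authors' deposited tables. At these SEs only changes of at least 7.45-fold, 13.2-fold and 5.23-fold would have passed. A change of the type I receptor gene was therefore not detectable here unless it was very large.

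Smad7 encodes the inhibitory SMAD that TGF-beta induces and that shuts the receptors down. Its change was -0.38 (SE 0.25) after 2 weeks of UV, -0.30 (SE 0.31) after 5 weeks and 0.14 (SE 0.23) in the clone in the authors' deposited tables, and none passed. The 95% interval in the clone, -0.32 to 0.60 in the authors' deposited table, held changes of up to 1.52-fold higher.

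Id1 encodes an inhibitor of basic helix-loop-helix factors and is a classic target of BMP-activated SMADs. It stood at 0.73 (SE 0.44) after 2 weeks of UV, -0.17 (SE 0.88) after 5 weeks and -0.17 (SE 0.44) in the clone in the authors' deposited tables. None passed, and the value at 2 weeks was the highest among the 7 genes there (adjusted p = 0.486 in the authors' deposited table).

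**Figure D2:**
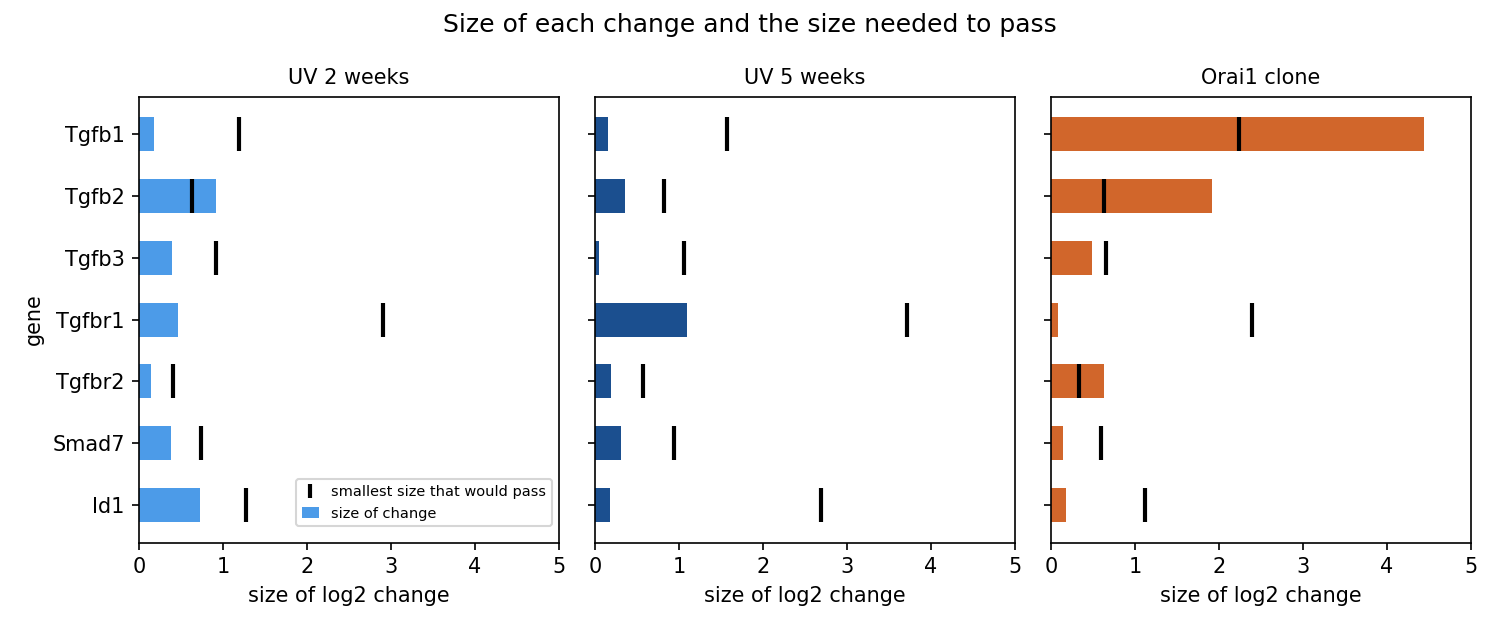
Size of the log2 change of the 7 genes with values of their own (bars, treated against untreated B16N, sign left out) beside the smallest size that would pass an adjusted p of 0.05 at each gene's SE (black marks). Tgfb2 at 2 weeks and Tgfb1, Tgfb2 and Tgfbr2 in the clone reach past their mark, and Tgfbr1 had the largest mark in each panel.

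In counts, 0 of the 7 genes were higher and 1 was lower after 2 weeks of UV, where 7.67% of all 14648 genes passed (3.13% higher and 4.55% lower), and 8.99% of the genes with values of their own. After 5 weeks 0 of 7 passed, against 4.78% of 14821 genes (3.07% higher and 1.71% lower) and 5.51% of those with values of their own, and 0 of the 7 had an unadjusted p under 0.05. In the clone 1 was higher and 2 were lower, where 22.0% of 15041 genes passed (10.3% higher and 11.6% lower), and 25.9% of those with values of their own. A change of at least 2-fold that also passed was shown by 0 of 7 at 2 weeks, 0 at 5 weeks and 2 in the clone, against 0.348%, 1.81% and 6.79% of all genes. Nothing is read from these counts over so small a set. Their median change was -0.38 at 2 weeks, -0.17 at 5 weeks and -0.07 in the clone, beside 0.03, 0.02 and 0.07 over all genes, in the authors' deposited tables.

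The 3 comparisons share the untreated B16N sample. The treated samples were therefore also set against one another, by a normal test of the difference of both changes. The control's value cancels in the difference, but its spread is counted in both SEs, which widens the intervals and makes a pass harder. Tgfb1 was lower in the clone than after 2 weeks of UV by a difference of -4.62 (SE 0.97, adjusted p = 5.67e-05) and than after 5 weeks by -4.59 (SE 1.02 and adjusted p = 3.58e-04) in the authors' deposited tables. Tgfb2 was lower in the clone as well, by -1.0 (SE 0.33, adjusted p = 0.0209) against 2 weeks and by -1.57 (SE 0.36, adjusted p = 7.51e-04) against 5 weeks in the authors' deposited tables. Tgfbr2 was higher in the clone than after 2 weeks of UV (difference 0.77, SE 0.19 and adjusted p = 0.00108) in the authors' deposited tables. Against 5 weeks its difference was 0.44 (95% interval -0.01 to 0.89, adjusted p = 0.366) in the authors' deposited tables. Tgfb3 had a difference of 0.87 between the clone and 2 weeks (95% interval 0.08 to 1.67), which did not pass the adjustment (adjusted p = 0.163) in the authors' deposited tables.

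Of all genes with values of their own, 13.2% of 10218 differed between the clone and 2 weeks of UV (5.25% higher and 7.98% lower in the clone), where 3 of the 7 genes did. Between the clone and 5 weeks 6.18% of 10278 differed (1.49% higher and 4.69% lower in the clone), and 2 of the 7. Between 5 and 2 weeks of UV 0 of the 7 differed, where 3.75% of 10166 genes did (2.31% higher and 1.44% lower at 5 weeks), and 0 had an unadjusted p under 0.05. For Tgfb2 that difference was 0.57 (95% interval -0.11 to 1.24) in the authors' deposited tables, so its pass at 2 weeks and not at 5 weeks does not show that the UV times differ. For Smad7 it was 0.08 (95% interval -0.70 to 0.86) and for Id1 -0.90 (-2.83 to 1.04) in the authors' deposited tables.

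**Figure D3:**
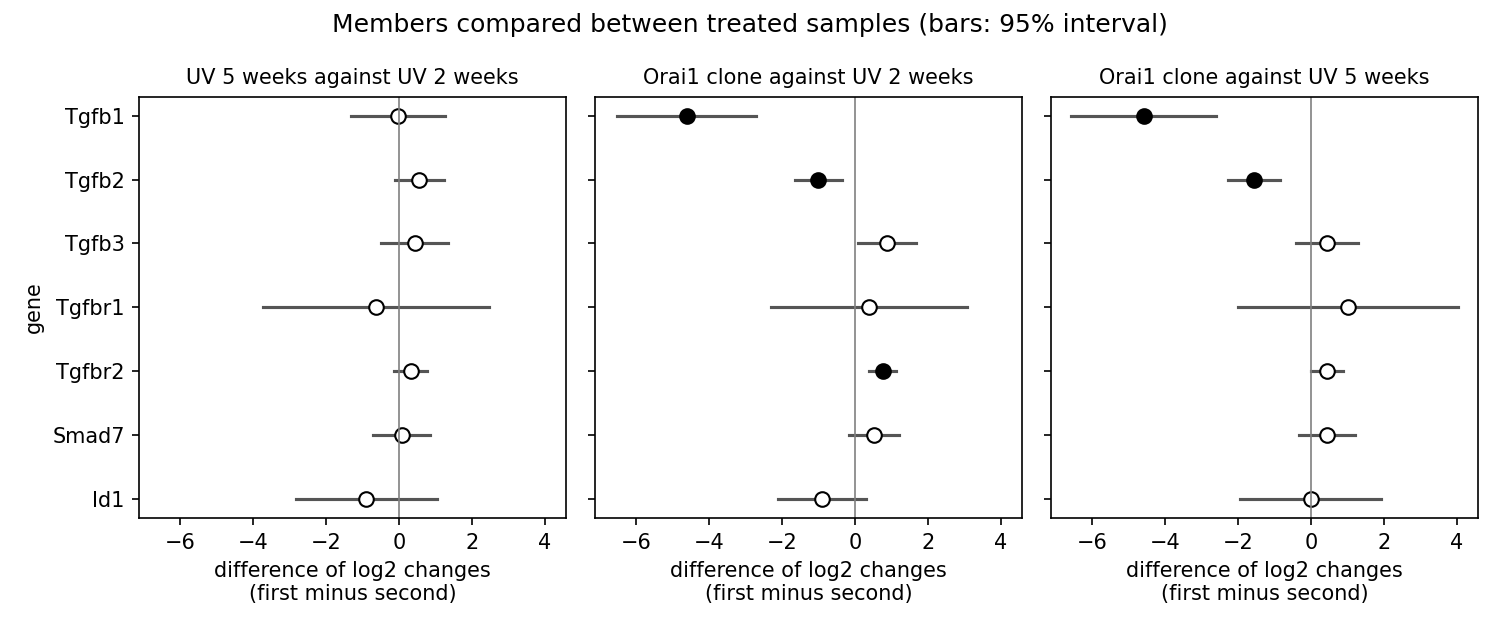
Difference of the log2 changes (x axis, first sample minus second) for the 7 genes with values of their own, in 3 pairs of treated B16N samples. Bars are 95% intervals and filled points pass an adjusted p of 0.05. Tgfb1 and Tgfb2 lie below 0 where the clone is set against either UV time.

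Tgfbr3 encodes betaglycan, the co-receptor that presents Tgfb2, and Id3 encodes a relative of Id1. In all 3 mouse tables Tgfbr3 had the exact values of Tspan9, a tetraspanin gene, and Id3 those of Phldb1, and which gene each value belongs to cannot be told apart. The tables hold 814 symbol pairs of this kind that share values in all 3 comparisons. The values under Tgfbr3 and Tspan9 were -0.21 (SE 0.42) after 2 weeks of UV, 0.99 (SE 0.40) after 5 weeks and -1.68 (SE 0.51) in the clone in the authors' deposited tables. Only the one in the clone passed (adjusted p = 0.00707 in the authors' deposited table). Under Id3 and Phldb1 the changes were 0.29 (SE 0.18), -0.27 (SE 0.62) and 0.22 (SE 0.12) in the same order in the authors' deposited tables, and none passed.

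For 4 of the genes, those with an SE of at most 0.5 in all 3 tables, the genes with the most similar set of 3 changes were looked up by Euclidean distance among 7168 genes. These comparisons share the control, so closeness in the 3 changes is a description only. For Tgfb2 the nearest were B930095G15Rik (distance 0.34), Rlim (0.45) and Tlk1 (0.53), and for Tgfb3 they were Map2k2 (0.067), Dzank1 (0.070) and Zbed3 (0.071). Smarcb1 (0.066), Nol6 (0.069) and Gm16089 (0.071) were nearest to Tgfbr2, and Rnf139 (0.051), Prr12 (0.070) and Zdhhc3 (0.078) to Smad7. The nearest genes to Tgfb2 lay farther off than those of the other 3. Of these 4 genes Tgfb2 also had the largest change in each comparison. The distance was not adjusted for the size of change, so nothing is read from its larger distances.

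Of the genes that carry the signal inside the cell, the SMAD list had 1 of 6 measured members lower at 2 weeks, 1 of 7 lower at 5 weeks and 3 of 7 lower in the clone, with none higher in any of the 3. Over all genes 4.55%, 1.71% and 11.6% were lower in the same order. Of all genes with values of their own 8.99%, 5.51% and 25.9% passed in either direction. Smad4, the partner of all signalling SMADs, was lower at 2 weeks (-0.34, SE 0.10, adjusted p = 0.0108) and in the clone (-0.80, SE 0.12 and adjusted p = 2.09e-09) in the authors' deposited tables. Its change in the clone was also lower than at either UV time, by -0.47 (adjusted p = 0.028) against 2 weeks and -0.61 (adjusted p = 0.0309) against 5 weeks in the authors' deposited tables. Smad3, which relays TGF-beta, was lower at 5 weeks (-0.55, SE 0.17, adjusted p = 0.0276) and stood at -0.07 (SE 0.12) in the clone in the authors' deposited tables. Smad1, of the BMP branch, and the inhibitory Smad6 were lower in the clone (-0.76, SE 0.21 and -0.68, SE 0.24) in the authors' deposited table. The list's medians were -0.18, -0.19 and -0.24 in the order of 2 weeks, 5 weeks and clone.

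Of the genes that store and release the latent ligand, 1 of 6 with values of their own was lower at 2 weeks. In the clone 2 of 5 were lower and at 5 weeks 1 of 6, and none was higher in the 3 comparisons. Of all genes 4.55% were lower at 2 weeks, 1.71% at 5 weeks and 11.6% in the clone. Of those with values of their own 8.99%, 5.51% and 25.9% passed in either direction, in the same order. Furin, whose protease cuts the ligand precursors, was lower at 2 weeks (-0.44, SE 0.14 and adjusted p = 0.0262) in the authors' deposited table. Itgb5, an integrin subunit able to activate latent TGF-beta, was lower at 5 weeks (-1.18, SE 0.27) and in the clone (-1.16, SE 0.17) in the authors' deposited tables. Ltbp4, a latent TGF-beta binding protein, was lower in the clone (-1.68, SE 0.49 and adjusted p = 0.00407) in the authors' deposited table and stood at 0.86 (SE 0.33) at 2 weeks, a difference of -2.54 (adjusted p = 3.61e-04).

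Among inhibitors and co-repressors with values of their own 1 of 7 was lower at each UV time, and in the clone 1 was higher and 1 lower. Of all genes with values of their own 8.99% passed at 2 weeks, 5.51% at 5 weeks and 25.9% in the clone, so the count in the clone was near the background. Ski, a co-repressor that blocks SMADs, was lower at 2 weeks (-0.78, SE 0.09, adjusted p = 6.95e-14) and higher in the clone (0.33, SE 0.12 and adjusted p = 0.0251) in the authors' deposited tables, and the clone exceeded 2 weeks by 1.11 (adjusted p = 1.57e-11). Pmepa1, a TGF-beta target that limits the pathway, was lower at 5 weeks (-1.57, SE 0.34 and adjusted p = 2.77e-04) in the authors' deposited table. Smurf1, a ubiquitin ligase that marks SMADs and receptors for degradation, was lower in the clone (-0.72, SE 0.11) in the authors' deposited table. Bambi, a decoy receptor, stood at -0.28 (SE 0.23), -0.14 (SE 0.28) and -0.06 (SE 0.23) at 2 weeks, 5 weeks and in the clone in the authors' deposited tables, and did not pass.

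**Figure D4:**
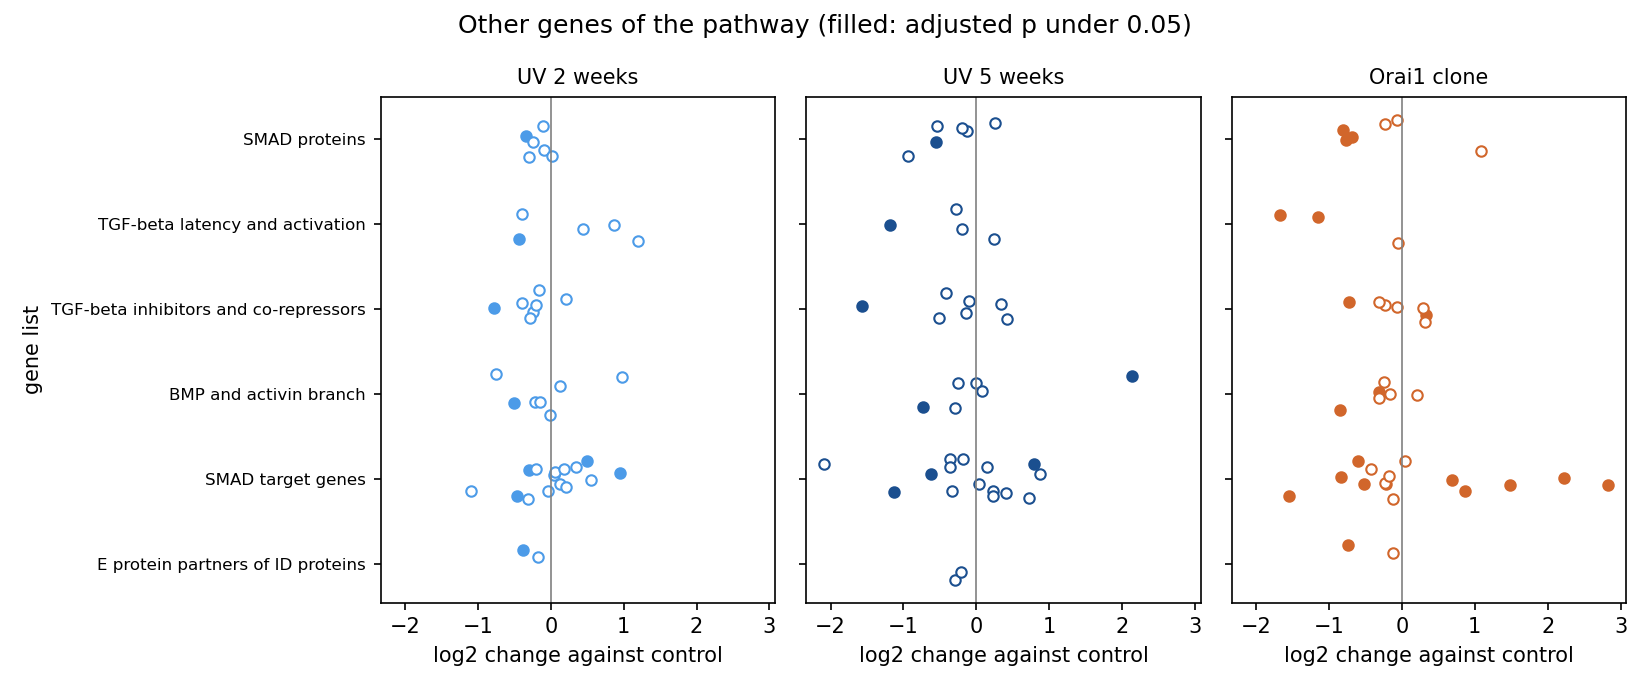
Log2 change against untreated B16N (x axis) of other pathway genes with values of their own and an SE of at most 1, by list (rows) and comparison (panels), from the authors' deposited tables. Filled points pass an adjusted p of 0.05, and vertical spread within a row only separates points. In the clone the SMAD target list reaches from Runx2 at -1.54 to Hes1 at 2.83.

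In the BMP and activin list, 1 of 8 members with values of their own was lower at 2 weeks. At 5 weeks 1 was higher and 1 lower, and in the clone 2 were lower. These counts stand beside 8.99%, 5.51% and 25.9% of all genes with values of their own that passed, and those at 2 weeks and in the clone were near it. The BMP receptor gene Acvr1 was lower at 2 weeks (-0.51, SE 0.17, adjusted p = 0.0351) and in the clone (-0.85, SE 0.18 and adjusted p = 3.18e-05) in the authors' deposited tables. With the median change set to 0, its value at 2 weeks no longer passed (adjusted p = 0.0512), nor did that of Twsg1, a BMP-binding protein gene, in the clone (-0.31, SE 0.12 and adjusted p = 0.0426 before, 0.0617 after) in the authors' deposited tables. Gdf15, a stress-induced ligand of the family, was higher at 5 weeks (2.13, SE 0.69, adjusted p = 0.0462), and the protease gene Bmp1 was lower (-0.74, SE 0.23 and adjusted p = 0.0311) in the authors' deposited table.

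Genes known as SMAD targets went both ways. Of 17 members with values of their own 2 were higher and 2 lower at 2 weeks and 1 higher and 2 lower at 5 weeks. In the clone 6 of 18 were higher and 4 lower. Among all genes with values of their own 8.99% passed at 2 weeks, 5.51% at 5 weeks and 25.9% in the clone, so more passed in the clone over the whole table too. Hes1, also a Notch target, was higher in the clone (2.83, SE 0.16), as were the matricellular gene Ccn1 (2.22, SE 0.10) and the AP-1 gene Junb (1.48, SE 0.14) in the authors' deposited table. All 3 exceeded their values at either UV time, Hes1 by 2.87 (adjusted p = 2.41e-17) against 2 weeks and 2.11 (adjusted p = 2.23e-07) against 5 weeks in the authors' deposited tables. Ccn1 was higher at 5 weeks too (0.79, SE 0.13 and adjusted p = 5.93e-07) in the authors' deposited table. The osteogenic factor gene Runx2 was lower in the clone (-1.54, SE 0.39 and adjusted p = 7.02e-04) in the authors' deposited table. At 2 weeks Bhlhe40 (0.94, SE 0.25) and Junb (0.50, SE 0.14) were higher, and Zeb2 (-0.46, SE 0.09) and the tropomyosin gene Tpm1 (-0.30, SE 0.07) lower, in the authors' deposited table. At 5 weeks Gadd45b (-1.13, SE 0.23) and Tpm1 (-0.63, SE 0.14) were lower in the authors' deposited table.

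ID proteins act by binding E proteins. Of 2 E protein genes with values of their own, Tcf3 was lower at 2 weeks (-0.39, SE 0.11, adjusted p = 0.00671) and Tcf12 in the clone (-0.74, SE 0.10 and adjusted p = 4.20e-12) in the authors' deposited tables, and neither passed at 5 weeks. The shares of all genes that were lower at 2 weeks and in the clone were 4.55% and 11.6%. Of those with values of their own 8.99% and 25.9% passed in either direction.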

How the data were processed

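The authors deposited 5 tables of comparisons of B16N, WM983 and UACC257 cells, with 1 sample per group per the labels. Per the file headers, the deposited tables give each gene's log2 fold change, its p-value and the statistic of the test, a score. GRCm38 is the build in the submitters' processing notes, and the aligner, counting and test are not given in the sources used here. Among mouse genes, 1357 had a row in a single table, and all 1357 had a negative deposited log2 value and 0 a positive one, as a gene read in the treated sample alone would with the control in the numerator. The sign was therefore turned. The SE is the change over the deposited score, whose two-sided normal p gave the deposited p (largest gap 5.00e-08). Human signs are as deposited.

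Rows without a symbol (1 per table) or p-value (3, clone) were left out, leaving 14648, 14821 and 15041. Benjamini-Hochberg adjustment ran over these. Values shared with another symbol (28.9%, 29.3% and 29.1% of rows) entered the adjustment and no gene count of a list. Differences between treated samples used a normal test with both SE added in squares, which counts the control's spread in each. Intervals are 95% and assume these SEs. The members and lists were chosen with earlier results of these data known. Named from the 11 other lists were up to 4 passing genes per list and comparison, by size of change, with an SE of at most 1. Other genes are named to show a contrast and were chosen after their values were seen. The procedure was tested on simulated data. Their noise was drawn from the deposited SEs, so this does not check whether those SEs are right. Alternatives were an adjusted p under 0.01, a 2-fold minimum, an SE of at most 0.5, centring on the median of genes with an SE of at most 0.3, and shared values in or out. Python 3.11.15, numpy 2.4.6, pandas 2.3.3, scipy 1.17.1 and matplotlib 3.10.9 were used.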

Additional observations from a re-analysis of the deposited data

Results flagged for a closer look

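Changes of 4 of the 53 tested genes of the other lists differed between the UV times, by the normal test of the difference at 5 weeks minus 2 weeks in the authors' deposited tables, where 3.75% of all genes with values of their own did. Ski differed by 0.67 (adjusted p = 0.0225), with changes of -0.10 at 5 weeks and -0.78 at 2 weeks in the authors' deposited tables. Pmepa1 differed by -1.41 (adjusted p = 0.00943), with -1.57 at 5 weeks and -0.16 at 2 weeks in the authors' deposited tables. Gadd45b differed by -0.93 (adjusted p = 0.041), with -1.13 at 5 weeks and -0.21 at 2 weeks in the authors' deposited tables. The melanocyte antigen gene Mlana differed by 0.52 (adjusted p = 0.0323), with 0.53 at 5 weeks and 0.01 at 2 weeks in the authors' deposited tables.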

How the results depend on the processing

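Of these alternatives only centring alters a log2 value, by taking off medians of -0.023 at 2 weeks, -0.010 at 5 weeks and -0.019 in the clone. The direction of a passing change or difference of the 7 genes was therefore not put to a test, and only whether it passed could vary. A 2-fold minimum removed Tgfb2 at 2 weeks of UV, leaving 0 of 7, Tgfbr2 in the clone, and the difference of Tgfbr2 between the clone and 2 weeks, leaving 2 of 7 there. A limit of 0.5 on the SE leaves Tgfb1 out of every comparison of the clone by construction. Applied to both tables of a pair, it leaves out Tgfb1, Tgfbr1 and Id1 between the clone and 5 weeks, and 1 of the 4 genes left, Tgfb2, differed. With an adjusted p under 0.01 Tgfb2 no longer differed between the clone and 2 weeks. Over all genes, the count that passed with an adjusted p under 0.01 was 735 at 2 weeks (1124 at 0.05) and 430 at 5 weeks (708). For the differences it was 221 between the UV times (381), 900 between the clone and 2 weeks (1351) and 399 between the clone and 5 weeks (635). With a 2-fold minimum the counts were 51 at 2 weeks, 269 at 5 weeks and 1021 in the clone (3305), and 132, 486 and 277 for the differences in the same order. Other counts stayed within 1.5 times of those in the report. No paired analysis was possible because each group has 1 sample, and for the same reason no replicate could be left out. Depth is unknown, so the SE is the only guide to precision.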

Other observations

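Several further genes of the lists shared their values with an unrelated symbol, and they are named here after their values were seen. The fibronectin gene Fn1, a TGF-beta target, and Ak7 both stood at -0.36 (SE 0.11) after 2 weeks of UV, -1.02 (SE 0.18) after 5 weeks and -3.19 (SE 0.16) in the clone in the authors' deposited tables, and each passed. Atf3 and Mrpl54 shared 1.45 (SE 0.22) at 5 weeks and -1.61 (SE 0.25) in the clone in the authors' deposited tables. Bmpr1a and Spc24 shared -0.40 (SE 0.09) at 2 weeks and -0.44 (SE 0.11) in the clone in the authors' deposited tables. Bmp7, of the same list, went the other way in the clone. With Sorbs3 it shared 0.67 (SE 0.13) there, which passed, in the authors' deposited table. Their shared values of 0.09 (SE 0.14) at 2 weeks and 0.32 (SE 0.18) at 5 weeks did not pass.

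The human tables hold the same 420 genes, and 351 of those in WM983 stand at its smallest p-value of 5e-05 in the authors' deposited table. In UACC257 the smallest p-value is 0.02565 in the authors' deposited table. How the 420 genes were chosen is not given, and a choice by change in WM983 would by itself give larger values there. The values below are therefore not read as a difference between the lines. GDF15 stood at -1.51 in WM983 and 0.27 in UACC257, ITGAV at 1.35 and 0.01, and TWSG1 at 1.14 and 0.10 in the authors' deposited tables, whose direction is not known. SNAI1 stood at -1.05 in WM983 and -0.46 in UACC257, and SNAI2 at 1.09 and 0.11 in the authors' deposited tables.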
